A study of Mus musculus with 4 samples.

Results

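The genes described are 10 receptor tyrosine kinases that bind EGF, FGF or PDGF family ligands: Egfr, Erbb2, Erbb3, Erbb4, Fgfr1, Fgfr2, Fgfr3, Fgfr4, Pdgfra and Pdgfrb. They were listed by name as receptors that bear on stem cells grown in EGF. All probe sets that the platform annotation assigns to a single member were taken, which gave 24 of the 22690 probe sets on the array. In all, 12393 genes had at least 1 probe set of their own.

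The samples were neural stem cell cultures from the ganglionic eminences of mouse embryos at embryonic day 14.5, on a C57/Bl6 background. All cultures grew without serum and with EGF. Wild type had 1 array. The mutant, labelled Olig1 KO, had 3, here KO 1, KO 2 and KO 3, and the titles number KO 2 and KO 3 as 37 and 38. The labels give neither the structure of the Olig1 allele nor whether embryos were pooled, and they do not say that the KO arrays came from separate cultures, so p-values here reflect array-to-array spread that may be technical in origin. The comparison asks whether receptor transcripts differ when Olig1, a basic helix-loop-helix transcription factor gene of the oligodendrocyte lineage, is mutated.

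These receptors sit in the cell membrane, pair up when a ligand binds and phosphorylate each other and their adaptors, which starts the RAS to ERK and PI3-kinase to AKT cascades. EGF acts through EGFR, which pairs with the other ERBB proteins, and it is used to keep neural stem cells dividing in culture. FGF receptors do the same for FGF in such cultures, and PDGFRA marks oligodendrocyte precursors while PDGFRB marks pericytes and mesenchyme.

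Signals are MAS5 values on a linear scale, and each array had a trimmed mean of about 500.2. A signal is called at background in an array where it does not exceed the highest of 27 control probe sets for bacterial genes absent from the sample, which was 30.5 in wild type, 21.3 in KO 1, 39.99 in KO 2 and 87.8 in KO 3. Signals of different probe sets are not compared with each other, since probes differ in brightness, so no order of the receptors is given. The arrays formed pairs that cut across genotype: 18S ribosomal RNA (median over 3 probe sets) was 4.64 in wild type and 7.24 in KO 1, but 946 and 2823 in KO 2 and KO 3, and Xist, the RNA of the inactive X chromosome, was 9480 and 8473 against 161 and 46.5. For beta-actin the ratio of 3' to 5' signal was 1.11 in wild type, 1.251 in KO 1, 1.30 in KO 2 and 1.82 in KO 3. The Olig1 probe set gave 7618 in wild type against 3840 in KO 1, 4438 in KO 2 and 8548 in KO 3, so it does not check the genotype labels. Of 11 neural stem cell markers, 9 were above background in all 4 arrays. Msi1 was at background in KO 3, and Sox1 in KO 2 and KO 3.

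Of the 10 receptor genes, 5 had a probe set above background in all 4 arrays: Egfr and the 4 FGF receptor genes. The other ERBB genes and both PDGF receptor genes did not. Of the 24 probe sets, 11 were above background in all 4 arrays, 6 in some and 7 in none. The 11 were also the receptor probe sets that passed the filter on low mean signal, and all tests below are on these.

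**Figure D1:**
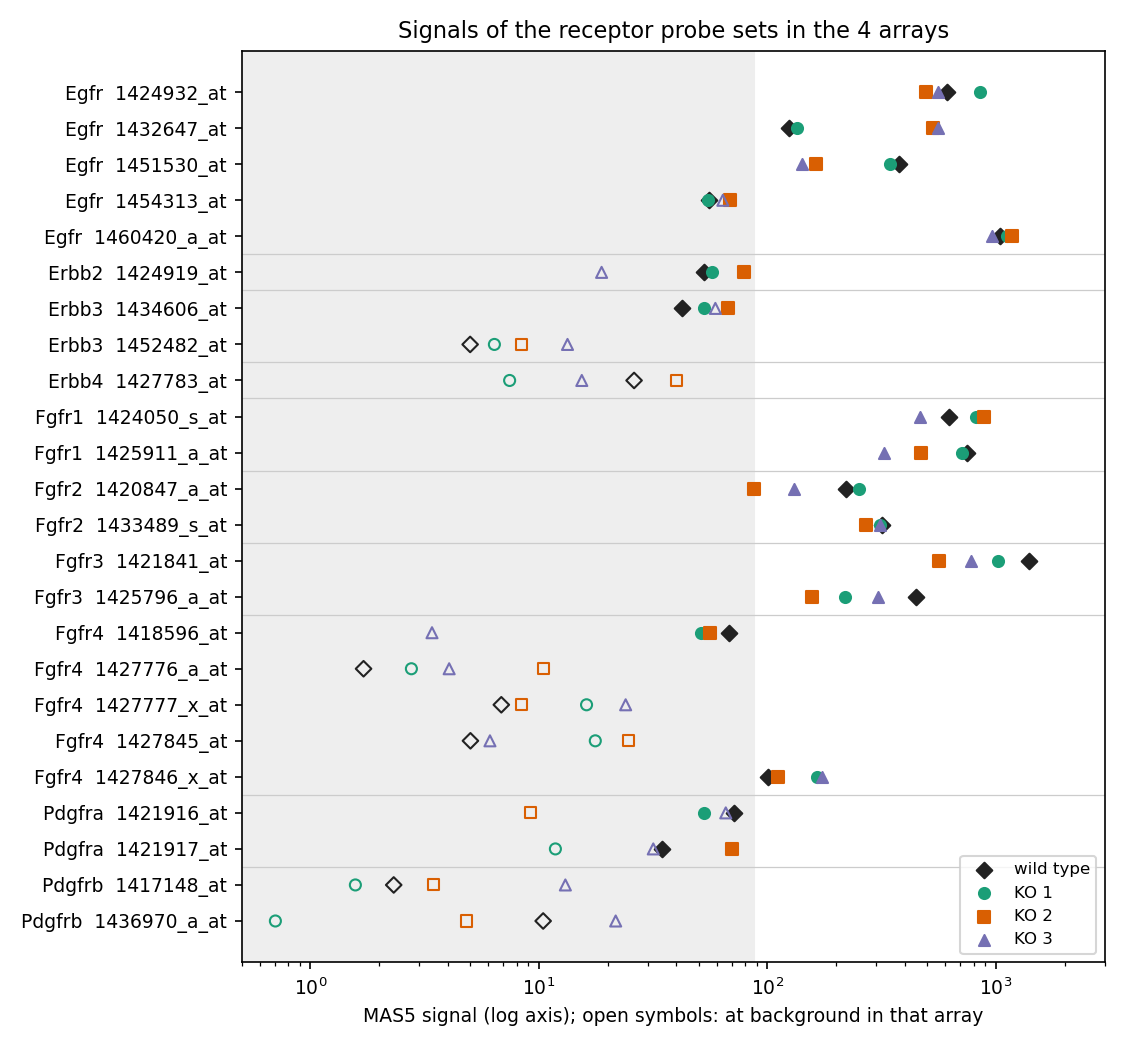
MAS5 signal (log axis) of each receptor probe set in the wild-type array and the 3 arrays labelled Olig1 KO. Filled symbols are above background in their own array and open symbols are not. The grey band ends at 87.8, the highest background, that of KO 3. Probe sets of Erbb4 and Pdgfrb are open in all 4 arrays, and those of Fgfr3 lie highest in the wild-type array.

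No receptor passed the test. Over the 7436 kept genes limma called 0 (0% in each direction) at the adjusted threshold of 0.05, so 0 of the 5 kept receptor genes. At an unadjusted p under 0.05 there were 168 genes (2.26%), none of them a receptor in this fit, and the wild-type array lay outside the KO range for 43.8%, which includes 3 of the 5 receptor genes. Without KO 1 limma called 2 genes, Eif2s3y and Tmem87a, again no receptor. That fit sets wild type against KO 2 and KO 3, so genotype and array pair cannot be told apart in it, and Y-linked Eif2s3y was 0.608 in wild type and 1.53 in KO 1 against 654 in KO 2 and 1160.5 in KO 3. In limma over 13576 kept probe sets, 0 were called (0% higher, 0% lower) and 324 (2.39%) had an unadjusted p under 0.05, none of them for a receptor. Without KO 1, 8 probe sets were called, none for a receptor. Fgfr3 had an unadjusted p under 0.05 in 3 alternative gene fits, with an eBayes trend, without KO 1 and with the mean of its probe sets. In these fits 158, 518 and 180 of the 7436 kept genes did. Without KO 1, 4 receptor probe sets had an unadjusted p under 0.05, as did 1190 of all 13576 kept probe sets. The 4 were of Egfr (1432647_at and 1451530_at), Fgfr2 (1420847_a_at) and Fgfr3 (1421841_at). Fgfr3 1421841_at did so with an eBayes trend as well, and Fgfr3 1425796_a_at without KO 3. Over all kept probe sets, 297 did so with an eBayes trend and 479 without KO 3. With 1 wild-type array, a one-sided permutation of a single value cannot give a p below 0.25.

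Of the 11 receptor probe sets tested, all 3 KO arrays were below the wild-type array for 5 and above it for 2, and the arrays overlapped for 4. Over all kept probe sets the KO arrays were all below wild type for 23.3% and all above for 22.7%. The median log2 difference of the 11 was -0.085, beside -0.011 over all kept probe sets. In 9 of the 11 the lowest signal was in KO 2 or KO 3, as it was for 56% of all kept probe sets.

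**Figure D2:**
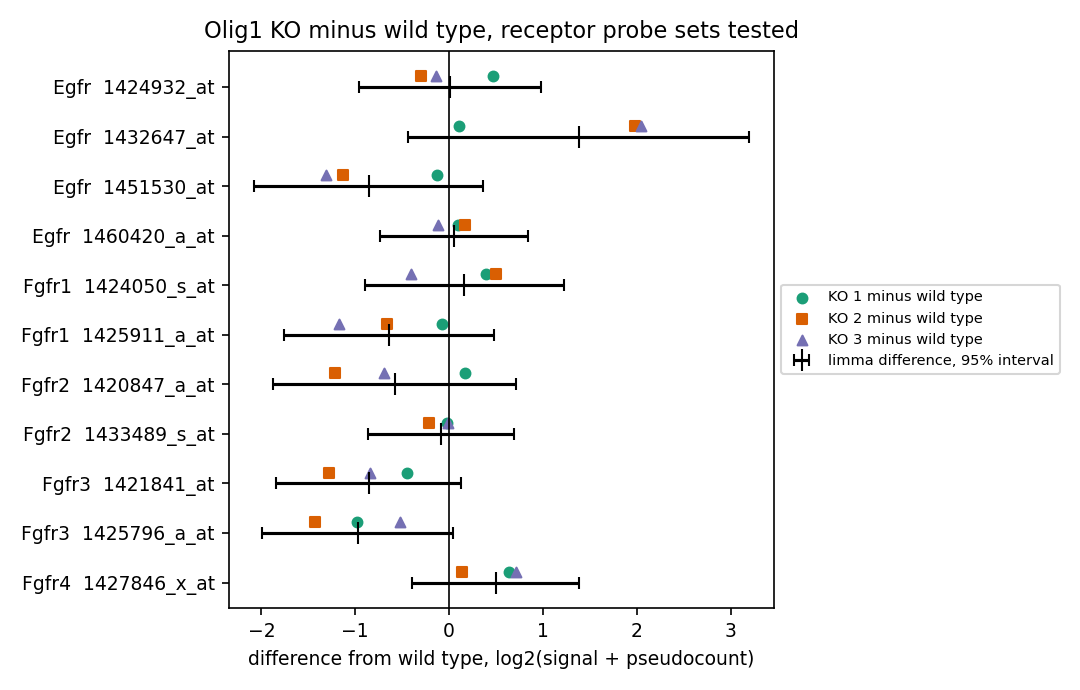
Difference of Olig1 KO from wild type on the log2 scale for the 11 receptor probe sets tested. Black ticks and bars are the limma estimate and its 95% interval, and coloured symbols are the single KO arrays minus the wild-type array. Every interval includes 0, and both Fgfr3 probe sets have all 3 KO arrays below wild type.

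Egfr encodes the receptor on which the supplied EGF acts, and its 5 probe sets gave different pictures. Probe set 1460420_a_at, which had the highest mean and stood for the gene in the gene fit, gave 1048 in wild type against 1118 in KO 1, 1178 in KO 2 and 967 in KO 3. The wild-type array lay inside the range of the KO arrays. The log2 difference was 0.049 (SE 0.31, 95% interval -0.68 to 0.78, limma adjusted p = 0.99997 in the gene fit), so a change of up to 0.68 log2 units down or 0.78 up lies within the interval. Its SD over the 4 arrays was 0.12 log2 units, beside a median of 0.27 over kept genes.

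Another Egfr probe set, 1432647_at, gave 124 in wild type and 134 in KO 1, but 533 and 559 in KO 2 and KO 3. The signal was thus high in the pair of arrays with high 18S signal and low in the other pair. A further one, 1451530_at, ran the opposite way, with 376 and 343 in the wild-type array and KO 1 and 164 and 142 in KO 2 and KO 3. Their log2 differences of KO from wild type were 1.38 (SE 0.76) and -0.86 (SE 0.51), neither of which passed (limma adjusted p = 0.999 for each, over probe sets). Within the pair that holds both genotypes, KO 1 differed from the wild-type array by 0.11 and -0.13, and KO 2 and KO 3 differed from each other by 0.065 and -0.19. A fit with the pair as a block adds nothing to this, since KO 2 and KO 3 have no wild-type partner and the blocked value is KO 1 minus wild type by construction, 1 array against 1.

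KO 2 and KO 3 were both at least 1 log2 unit above the other 2 arrays for 73 kept probe sets (0.538%) and both at least 1 log2 unit below them for 97 (0.714%), and Egfr had a probe set in each set. Egfr was the only gene for which this held, among 3065 genes with more than 1 kept probe set. At a gap of 0.5 log2 units there were 18 such genes. These counts were made after the signals were seen. The 18S and Xist signals given above split between the same pairs, as did Y-linked Eif2s3y, which ran opposite to Xist. By Xist and Eif2s3y, wild type and KO 1 read as female and KO 2 and KO 3 as male. The beta-actin ratio did not form these pairs but rose from wild type through KO 1 and KO 2 to KO 3. For Gapdh the ratio of 3' to 5' signal was 0.76 in wild type and 0.79 in KO 1, against 1.03 in KO 2 and 0.84 in KO 3. The median ratio of 18 spike-in control probe sets to wild type was 0.90 in KO 1, but 1.89 in KO 2 and 2.75 in KO 3. The part of these measures in the Egfr split was not tested.

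The remaining Egfr probe sets did not split between the pairs by 1 log2 unit. Probe set 1424932_at gave 612 in wild type against 854 in KO 1, 496 in KO 2 and 556 in KO 3, which overlap it, for a log2 difference of 0.014 (SE 0.41). Probe set 1454313_at gave 55.8 in wild type, 55.03 in KO 1 and 68.7 in KO 2, with KO 3 at background (63.9). The log2 differences of the 4 kept Egfr probe sets spanned 2.24 log2 units, beside a median span of 0.78 over the 236 genes with 4 kept probe sets, of which 99.2% spanned less. The files give no positions for the probe sets, so which Egfr transcripts each one reads is not known here.

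**Figure D3:**
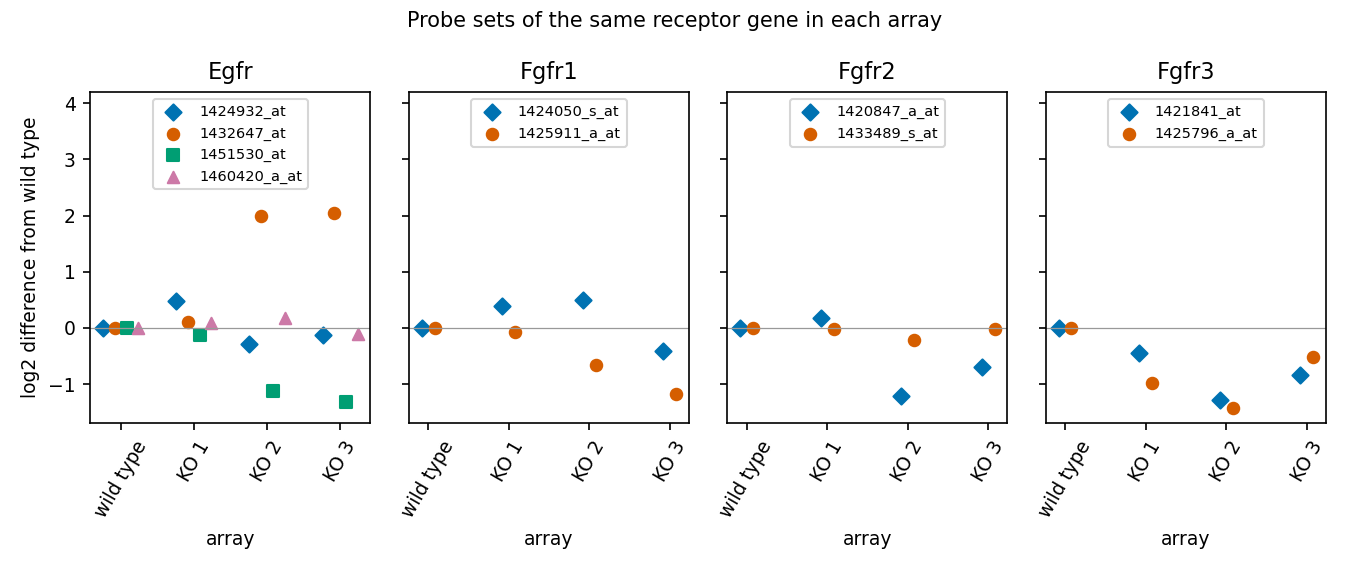
Log2 difference of each array from the wild-type array for the kept probe sets of Egfr, Fgfr1, Fgfr2 and Fgfr3, where the wild-type array is 0 by construction. In Egfr, 1432647_at lies near 2 and 1451530_at below -1 in KO 2 and KO 3 only, while both Fgfr3 probe sets are below 0 in all 3 KO arrays.

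ERBB2 is the ERBB protein without a known ligand of its own, which serves as a partner for the others. The only Erbb2 probe set gave 52.8 in wild type, 57.4 in KO 1 and 79.4 in KO 2, and it was at background in KO 3 with 18.8. ERBB3 and ERBB4 are receptors for neuregulins, and ERBB3 has only a weak kinase. Erbb3 probe set 1434606_at gave 42.5 in wild type and 53.0 and 67.0 in KO 1 and KO 2, with KO 3 at background (59.2). The other Erbb3 probe set lay between 5.003 and 13.3, and the only Erbb4 probe set between 7.45 and 39.8, at background in all 4 arrays. No fold is given for these genes, which the filter left out of the test.

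FGFR1 is the receptor through which FGF2 acts on many neural stem cells. Probe set 1424050_s_at gave 624 in wild type against 821 in KO 1, 891 in KO 2 and 467 in KO 3, so the arrays overlapped, and KO 3 was lowest. The log2 difference was 0.16 (SE 0.44). The suffix of this probe set marks probes that may cross-hybridize. Probe set 1425911_a_at gave 749 in wild type against 709.8 in KO 1, 469 in KO 2 and 324 in KO 3, all lower, with KO 3 again lowest. Its log2 difference was -0.64 (SE 0.47, limma adjusted p = 0.999 for each of the 2), and -0.076 for KO 1 alone. The sign for Fgfr1 therefore depends on the probe set, and with the mean of both it was -0.24.

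Fgfr2 had a steady and an unsteady probe set. FGFR2, like FGFR1 and FGFR3, is found in radial glia. Probe set 1433489_s_at gave 316 in wild type against 312 in KO 1, 270.2 in KO 2 and 313 in KO 3, all slightly lower, with a log2 difference of -0.085 (SE 0.33, 95% interval -0.86 to 0.69). This steady probe set also has a suffix for probes that may cross-hybridize. Probe set 1420847_a_at gave 222 in wild type and 251 in KO 1, against 87.4 and 131 in KO 2 and KO 3. Here KO 2 and KO 3 were low and the other pair high, and the log2 difference of -0.58 (SE 0.54) stands beside 0.17 for KO 1 minus wild type alone, 1 array against 1.

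Fgfr3, a gene of ventricular progenitors and astrocytes, had the largest difference of the 5 genes in the gene fit, which reads each gene from its brightest probe set. Among single probe sets that of Egfr 1432647_at was larger, at 1.38. Probe set 1421841_at gave 1399 in wild type against 1023 in KO 1, 566 in KO 2 and 776 in KO 3, or 788 ± 229 (SD, n = 3). Probe set 1425796_a_at gave 446 in wild type against 218 in KO 1, 157 in KO 2 and 307 in KO 3, or 227 ± 75.2 (SD, n = 3). In both, every KO array was below the wild-type array, and KO 2 was lowest. The wild-type signal was 1.77 and 1.96 times the KO mean.

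The log2 differences of the Fgfr3 probe sets were -0.86 (SE 0.41, 95% interval -1.84 to 0.13) and -0.98 (SE 0.43, 95% interval -1.99 to 0.039). Neither passed (limma adjusted p = 0.999 for each, over probe sets), and the gene fit gave an adjusted p of 0.99997. KO 1, in the same pair as the wild-type array, differed from it by -0.45 and -0.98. Both probe sets of Fgfr3 thus pointed the same way to within 0.12 log2 units, beside a median span of 0.31 over 1973 genes with 2 kept probe sets. The SD over the 4 arrays was 0.55 log2 units, larger than for most kept genes, whose median was 0.27, and the KO arrays alone had an SD of 0.42 with the first probe set.

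Markers of astrocytes, which also carry Fgfr3, are given beside it. Of 7 astrocyte markers, 6 were above background in all 4 arrays, and the seventh, Gfap, was at background in KO 3. The summed signal of the list was 8325 in wild type against 5441 to 7323 over the KO arrays, lowest in KO 2. Most of this sum came from Aldoc, Gja1 and S100b. The arrays overlapped for Aldoc and S100b, while Gja1 was lower in all 3 KO arrays. Of the 6 kept markers, 2 were lower in all 3 KO arrays and none was higher in all 3, beside 20.6% and 23.2% of all kept genes. Their part in the Fgfr3 difference was not tested, and in such bulk samples fewer cells of a type and less RNA per cell cannot be told apart.

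Because Olig1 encodes a basic helix-loop-helix protein, a class that binds E-boxes, the 250 bases before the annotated starts of Fgfr3 are shown with that of Egfr, whose main probe set hardly differed. The sequences are from RefSeq on GRCm38.p6, all on the + strand, and capitals mark the letters CANNTG, which read the same on both strands.
Fgfr3, chr5:33721474-33721723: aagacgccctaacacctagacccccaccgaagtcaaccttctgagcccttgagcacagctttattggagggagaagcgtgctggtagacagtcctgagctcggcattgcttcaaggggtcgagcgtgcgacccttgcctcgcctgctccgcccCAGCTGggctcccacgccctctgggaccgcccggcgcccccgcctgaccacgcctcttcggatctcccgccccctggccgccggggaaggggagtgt
Fgfr3, chr5:33722056-33722305: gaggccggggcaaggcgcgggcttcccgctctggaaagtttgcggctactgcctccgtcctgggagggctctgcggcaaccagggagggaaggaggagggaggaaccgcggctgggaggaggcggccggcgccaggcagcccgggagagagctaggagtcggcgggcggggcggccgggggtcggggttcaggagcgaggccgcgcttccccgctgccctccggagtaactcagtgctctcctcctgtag
Egfr, chr11:16751953-16752202: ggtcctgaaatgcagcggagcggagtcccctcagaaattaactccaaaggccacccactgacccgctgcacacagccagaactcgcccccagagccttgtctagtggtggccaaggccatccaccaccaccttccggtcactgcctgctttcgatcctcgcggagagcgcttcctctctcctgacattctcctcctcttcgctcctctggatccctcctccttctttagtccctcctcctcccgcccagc

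The first Fgfr3 window held 1 match, CAGCTG, whose first base lies 97 bases before the start, and the other windows printed here held none. The windows of Erbb2, Fgfr2 and Pdgfra held 1 match each, that of Fgfr4 held 2 and that of Erbb4 held none. How matches relate to the differences between KO and wild type was not tested. CANNTG was present in 66.2% of 32851 windows of this length and CAGCTG in 13.0%, so a match is common, and no binding was measured. The G+C share was 66.8% and 72.8% in the Fgfr3 windows and 60.8% in the Egfr window, beside a median of 52.4%. Windows were read for 7 of the 10 receptor genes. Those on 1 chromosome were left out beforehand, so a gene not given here need not lack a window.

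FGFR4 is the FGF receptor best known from liver and muscle. Only probe set 1427846_x_at was above background in all 4 arrays, at 100.5 in wild type against 165 in KO 1, 112 in KO 2 and 174 in KO 3, all higher. The log2 difference was 0.50 (SE 0.37, limma adjusted p = 0.999). Its suffix marks probes that may cross-hybridize. Another probe set, 1418596_at, gave 67.9 in wild type, 51.3 in KO 1 and 55.9 in KO 2, with KO 3 at background (3.41). The 3 remaining probe sets were at background in every array, at 1.71 to 24.8, so the higher KO signal stands on a single Fgfr4 probe set of 5.

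PDGFRA is the PDGF receptor of oligodendrocyte precursors. Probe set 1421916_at gave 71.5 in wild type, 52.6 in KO 1, 9.15 in KO 2 and 65.8 in KO 3, at background in the last 2. Probe set 1421917_at gave 34.5, 11.8, 70.3 and 31.7 in the same order, at background in KO 1 and KO 3. The probe sets disagreed on where Pdgfra was above background, and only in the wild-type array were both above it. That depends on the background of each array, which was 30.5 in wild type and 87.8 in KO 3. Both KO 3 signals were near those of wild type. All 5 measured oligodendrocyte precursor markers, Cspg4, Sox10, Olig1, Olig2 and Nkx2-2, were above background in all 4 arrays, and their summed signal was 12497 in wild type against 8264 to 11738 over the KO arrays. Olig1 itself made up most of this sum in wild type, KO 2 and KO 3. In KO 1 it did not, with 3840 beside 4939 for Olig2. Without Olig1 the sum was 4879 in wild type against 5423 in KO 1, 3826 in KO 2 and 3190.5 in KO 3. In all 3 KO arrays Cspg4 and Sox10 were higher and Nkx2-2 lower than in wild type.

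PDGFRB signals were at background everywhere. The Pdgfrb probe sets gave 1.57 to 13.1 and 0.702 to 21.7 over the 4 arrays. Of 11 pericyte and mesenchyme markers, Col1a2 and Acta2 were above background in all 4 arrays, and Abcc9 and Anpep were at background in all 4. The summed signal over the 11 was 729 in wild type against 561 to 895 over the KO arrays.

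Ligands of these receptors were mostly dim. Of 8 ErbB ligand genes measured, 2 were kept, and of 22 FGF ligand genes 4 were kept, while Fgf2 was at background in all 4 arrays. Hbegf, an EGFR ligand gene, gave 1439 in wild type against 1042 in KO 1, 1543 in KO 2 and 1015 in KO 3, which overlap it, for a log2 difference of -0.29. In its other probe set all 3 KO arrays were lower, at 499.7 in wild type against 354 in KO 1, 353 in KO 2 and 232 in KO 3, a difference of -0.68. For Tgfa, another EGFR ligand gene, 1 probe set differed by -0.13 and another by 0.65. Fgf1, which encodes a ligand of all FGF receptors, gave 342 in wild type against 653 in KO 1, 795 in KO 2 and 403 in KO 3, all higher, for a log2 difference of 0.77 (SE 0.42). The other Fgf1 probe set, at 271 in wild type against 387 in KO 1, 291 in KO 2 and 214 in KO 3, differed by 0.089. Fgf12, an FGF relative that stays inside the cell, differed by 0.17.

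Pdgfc, a PDGFRA ligand gene, had the largest difference among the kept ligands. Probe set 1449351_s_at gave 71.97 in wild type against 137 in KO 1, 173 in KO 2 and 126 in KO 3, all higher. The log2 difference was 0.87 (SE 0.33, unadjusted p = 0.031 and adjusted p = 0.99997 in limma). The other probe set gave 35.5 in wild type, 95.8 and 115.5 in KO 1 and KO 2, and 42.8 in KO 3, at background there. Pdgfa, the main PDGFRA ligand gene, differed by 0.19, and by 0.37 for KO 1 alone.

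Of the 8 lists of other pathway genes, 72 of 119 measured genes were kept and none passed the test in limma. All 3 KO arrays were above the wild-type array for 14 of the 72 and below it for 18, beside 23.2% and 20.6% of all kept genes. Among 18 kept adaptor and cascade genes, every KO array exceeded wild type for 4 and was under it for 5, and the median log2 difference was 0.085. Gab1, a docking protein gene downstream of EGFR, differed by 0.79 (SE 0.35) and by 0.58 and -0.41 with its other probe sets. Map2k1, which encodes the kinase MEK1, differed by -0.55, by -0.34 without KO 3 and by -0.24 for KO 1 alone.

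Genes that restrain or carry the receptors gave medians below 0. Of 12 kept inhibitor and turnover genes, every KO array exceeded wild type for 2 and was under it for 3 (median -0.30). Lrig1, which encodes a membrane protein that limits ERBB signalling, differed by -0.50, and by -0.31 with another probe set, while a further one was at background in KO 3. Cbl, a ubiquitin ligase gene for activated receptors, differed by 0.63, by 0.41 for KO 1 alone and by -0.38 with its other probe set. Of 15 kept coreceptor and ligand release genes, 2 were higher and 5 lower (median -0.20). The heparan sulphate proteoglycan gene Gpc4 differed by -0.58, by -0.30 without KO 3 and by -0.17 for KO 1 alone. The heparan sulphate sulphotransferase gene Hs6st2 differed by 0.62, and by 0.97 for KO 1 alone.

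Of 8 kept ERK feedback and target genes, every KO array exceeded wild type for 1 and was under it for 2 (median -0.32), and 7 of the 8 were lowest in KO 3, beside 35.6% of all kept genes. KO 3 is also the array with the highest 18S signal, actin ratio and background, and their part in this was not tested. Dusp6, an ERK phosphatase gene, gave 4581 in wild type against 4349.7 in KO 1, 3454 in KO 2 and 1780.1 in KO 3. Spry2, which encodes an inhibitor of the cascade, gave 1835 in wild type and 1997 in KO 1, but 3307 and 3281 in KO 2 and KO 3. It differed by 0.60, by 0.12 for KO 1 alone and by 0.24 with the mean of its probe sets. Spry4 gave 202 in wild type, 164 and 77.6 in KO 1 and KO 2, and 26.5 in KO 3, at background there, so no exact difference is given for this probe set. The other Spry4 probe set, above background in all 4 arrays, gave 112.6 in wild type against 102 in KO 1, 64.5 in KO 2 and 92.6 in KO 3. Its log2 difference was -0.35. Dusp6 is named here with its values known.

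The 11 kept genes of 25 other receptor tyrosine kinases measured had a median of -0.12, with 1 higher and 3 lower in all 3 KO arrays. The neurotrophin receptor genes Ntrk2 and Ntrk3 differed by -0.49 and 0.43, but by -0.16 and 0.098 for KO 1 alone. Ntrk3 differed by 0.18 with cross-hybridizing probe sets left out. The receptors' own median over the 5 kept genes was 0.049, beside -0.00014 over all kept genes.

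**Figure D4:**
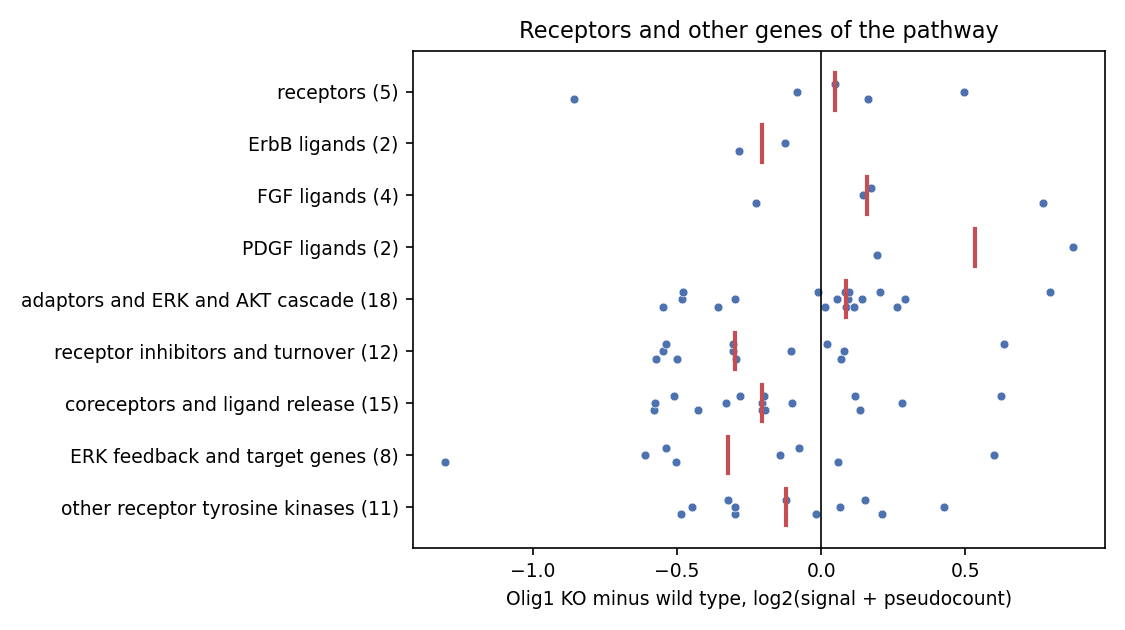
Olig1 KO minus wild type on the log2 scale for each kept gene (points) of the receptors and of 8 lists of pathway genes, with the number kept in brackets and red bars at the medians. Spry4, at background in KO 3, is the lowest point, Fgfr3 lies farthest below 0 among the receptors, and no point passed the test.

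Over the 4 arrays, the genes whose profile lay closest to that of Fgfr3 were Shf, Adhfe1 and Zbtb14, at Euclidean distances of 0.18, 0.18 and 0.19 between log2 values centred on each gene's mean. The median distance from Fgfr3 over kept genes was 1.05. Shf gave 243 in wild type against 168 in KO 1, 85.1 in KO 2 and 145 in KO 3. For Fgfr1 the closest were Pcbp3, Gng11 and Ncbp3, at 0.027, 0.085 and 0.089, beside a median of 0.81. With 4 arrays many genes lie close to any profile: 28 lay within 0.3 of Fgfr3 and 160 within 0.3 of Fgfr1.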

How the data were processed

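Per the labels, the authors made biotin-labelled cRNA from 6 µg of total RNA and hybridised 1 array per sample. The authors deposited linear signal intensities from MAS5, per the submitters' processing notes. No version, scaling target or detection call is given in the sources used here. The trimmed mean leaves out 2% of probe sets from each tail and its highest value over arrays was 1.00014 times its lowest, so no further scaling was applied.

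Of the 22690 probe sets, 64 are controls. Probe sets whose names end in _s_at or _x_at were marked as open to cross-hybridization. In the platform annotation 20393 probe sets had a single symbol, 691 more than 1 and 1606 no symbol, and symbols were updated through gene identifiers in RefSeq's GRCm38.p6 table. Intensities became log2(signal + 14.4), the pseudocount being 0.1 times the median of all values, which understates changes of dim genes. Each gene was read from its brightest probe set on average, and the 40% of genes (or of probe sets, in the probe set fit) with the lowest mean over all 4 arrays were left out. KO and wild type were compared with lmFit and eBayes (limma 3.58.1, R 4.3.3), with two-sided p-values adjusted by Benjamini-Hochberg over every kept feature and 2 residual degrees of freedom, all from the KO arrays. The code was tested on simulated data. The number of arrays limits the precision.

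The named genes are the 10 receptors, up to 2 kept members of each pathway list by moderated t (besides any whose KO arrays all lay 1 log2 unit or more from wild type, of which there were none), and for the 2 receptors that varied most, the 3 genes with the nearest profile. The receptors, lists and the pairing of arrays were chosen with earlier results of these data known. Alternatives covered pseudocount, scaling, filter, probe set choice, eBayes settings, each KO array left out and the array pair as a block.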

Additional observations from a re-analysis of the deposited data

How the results depend on the processing

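No receptor gene was called under any of the 14 alternatives. Without KO 1, 2 genes and 8 probe sets were called over the whole array, and leaving out each KO array gave 0 to 2 genes and 0 to 8 probe sets. The number of kept genes with the wild-type array outside the KO range was 3259, 4038 to 5255 with a KO array left out (fewer KO arrays give a narrower range) and 5428 of 12393 with no filter. Fgfr3 stayed lower in KO under all alternatives, from -1.06 to -0.45 log2 units, with adjusted p between 0.71 and 0.99999. Fgfr2 (-0.58 to -0.019) and Fgfr4 (0.39 to 0.68) kept their signs in the gene fit, but the alternatives that average probe sets or leave out cross-hybridizing ones gave no value for Fgfr4. With the brightest probe set of Fgfr2, Fgfr3 and Fgfr4, all 3 KO arrays lay on the same side of the only wild-type array. Leaving out a KO array, the block and the pseudocount, filter and eBayes settings therefore could not turn these signs. Signs turned as follows. With each KO array left out, Egfr ranged from -0.010 (without KO 2) to 0.13, Fgfr1 from -0.0087 (without KO 2) to 0.45, and Tgfa from -0.33 to 0.19 (without KO 2), for the receptors also in the probe set fit. Egfr probe set 1424932_at ranged from -0.22 (without KO 1) to 0.17. Fgfr1 was at -0.24 with the mean of its probe sets and at -0.64 with cross-hybridizing ones left out. With the mean of all probe sets, Tgfa was at 0.084 and Pdgfa at -0.0060. With the array pair as a block, which leaves KO 1 minus wild type as the only contrast, Fgfr2 probe set 1420847_a_at was at 0.17 and Tgfa at 0.29. The causes were not tested. No pairing by replicate number was possible, since the labels give wild type and KO none in common. Signals near background limit Erbb2, Erbb3, Erbb4, Pdgfra and Pdgfrb, for which no difference was estimated.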
